A study of Mus musculus with 12 samples.

Results

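Productive T cell receptor β (TCRβ) rearrangements without N insertions were chosen as all in-frame rearrangements, free of a stop codon, for which the immunoSEQ annotation counted 0 inserted bases between V and D and between D and J. They made up 18668 of the 205925 productive rearrangements when each was counted once per library, and 15405 of the 193848 distinct productive nucleotide rearrangements. Rearrangements with at least 1 insertion served as the comparison within the same libraries. The count that stands for cells is the template, the assay's estimate of the number of input genomes that carry a rearrangement.

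All libraries were made from genomic DNA of CD8+ T cells of female C57BL/6 mice bearing MC38, a mouse colon adenocarcinoma line, and given anti-CTLA-4 and anti-PD-L1 antibodies together. Every group received both antibodies, so no untreated library entered the comparisons. Spleen cells were sorted into CD27lo CX3CR1lo, CD27hi CX3CR1lo and CX3CR1hi CD8+ cells, where CX3CR1 is a fractalkine receptor that marks effector differentiation and CD27 a costimulatory receptor lost along it, and tumor-infiltrating CD8+ lymphocytes (CD8 TILs) were enriched with CD8a beads. Each of the 4 groups had 1 library from each of 3 experiments, here A, B and C. The paper lists several mice per experiment, and the sources do not tie a library to 1 animal. Each SD over experiments below, and each sign-flip p, thus measures the spread between experiments. Permutation tests within experiments exchange the group labels of an experiment's libraries, so their p rests on differences between libraries of the same experiment. None of these measures the spread between animals. Productive depth ran from 5893 templates in CD8 TILs A to 113660 in CX3CR1hi C.

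A TCRβ chain is assembled from a V, a D and a J segment. Exonucleases trim the ends, and terminal deoxynucleotidyl transferase (TdT) adds untemplated N nucleotides at both junctions. TdT is absent from the fetal thymus and appears after birth, so receptors without N nucleotides are typical of early life but go on being made in smaller numbers. Because such a junction is spelled by germline bases alone, the same sequence can be made again and again in different cells and animals, and junctions of this kind are the classic source of public receptors. CDR3, the loop built by the junction, is the part of the chain that mostly contacts the peptide.

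The sequences that follow are the junctions on which the results turn, first the 5 found in most libraries (ties at 6 libraries were ordered by summed templates), then the 2 with most templates in each CX3CR1hi library, then the leading member of CD8 TILs C and of CD27lo CX3CR1lo B and CD27hi CX3CR1lo C. The leading members of CD8 TILs A and B are among those already listed. Each runs 5′ to 3′ from the codon of the first CDR3 cysteine to the end of the read, which stops 1 codon before the end of CDR3. Capitals mark the bases assigned to D, so that what stands before them is V and what stands after them is J.
TCRBV13-02 with TCRBJ02-07, 10 codons: tgtgccagcggtgGGtatgaacagtac
TCRBV19-01 with TCRBJ02-01, 14 codons: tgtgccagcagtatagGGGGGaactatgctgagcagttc
TCRBV01-01 with TCRBJ01-01, 14 codons: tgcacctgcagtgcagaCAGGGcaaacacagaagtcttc
TCRBV29-01 with TCRBJ02-07, 10 codons, no D bases: tgtgctagcagtttatatgaacagtac
TCRBV05-01 with TCRBJ01-02, 14 codons: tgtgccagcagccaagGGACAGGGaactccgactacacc
TCRBV13-01 with TCRBJ02-02, 10 codons: tgtgccagcagtgGGgggcagctctac
TCRBV13-01 with TCRBJ01-01, 10 codons: tgtgccagcagtgGGGGGCaagtcttc
TCRBV13-02 with TCRBJ01-04, 12 codons: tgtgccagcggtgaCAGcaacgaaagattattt
TCRBV01-01 with TCRBJ01-02, 12 codons: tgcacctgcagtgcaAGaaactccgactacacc
TCRBV13-03 with TCRBJ01-01, 12 codons: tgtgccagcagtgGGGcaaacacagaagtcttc
TCRBV12-01 with TCRBJ02-05, 14 codons: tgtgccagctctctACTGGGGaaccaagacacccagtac
TCRBV01-01 with TCRBJ02-07, 12 codons: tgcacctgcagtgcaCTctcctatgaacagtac
TCRBV04-01 with TCRBJ01-03, 14 codons: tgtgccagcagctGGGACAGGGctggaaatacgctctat
TCRBV19-01 with TCRBJ02-07, 11 codons: tgtgccagcagtatGGGGtatgaacagtac

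The segments lie in the Tcrb locus on chromosome 6 of GRCm38 (mm10), the build named in the submitters' processing notes. In RefSeq's annotation Trbv13-2 spans chr6:41121396-41121832, Trbd1 chr6:41533201-41533212, Trbd2 chr6:41542163-41542176 and Trbj2-7 chr6:41543810-41543856, so these joins bring together coding segments that are far apart in the germline. All 41 V, D and J gene names used by these rearrangements matched a RefSeq symbol. Among them RefSeq classes Trbv9, Trbv10, Trbv22, Trbv29 and Trbj2-6 as pseudogene segments. TCRBV29-01 was nevertheless used by 6.23% of the productive members, on average over libraries.

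Rearrangements without N insertions took a nearly constant share of the unique repertoire in every group, and a smaller share of templates in the 2 clonally expanded groups. Their share of unique productive rearrangements was 9.33%, 9.58% and 9.17% in CD27lo CX3CR1lo for experiments A, B and C. It was 9.15%, 9.36% and 8.46% in CD27hi CX3CR1lo. It was 9.19%, 9.71% and 9.07% in CX3CR1hi. The CD8 TILs gave 10.2%, 9.10% and 9.20%, where 95% Wilson intervals, which cover counting error only, reached from 7.76% to 12.0%. The 4 groups overlapped, and the mean of CX3CR1hi and CD8 TILs exceeded that of both CX3CR1lo groups by 0.24 ± 0.28 percentage points (SD, n = 3 experiments; exact permutation test within experiments, two-sided, p = 0.333).

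Counted by templates the order was different. The template share was 9.45%, 9.66% and 9.17% in CD27lo CX3CR1lo and 9.70%, 9.96% and 9.24% in CD27hi CX3CR1lo. CX3CR1hi lay at 7.42%, 8.48% and 7.79%. CD8 TILs lay at 5.80%, 5.37% and 8.32%. Every CX3CR1hi and CD8 TILs library was below every CX3CR1lo library, and the means differed by -2.33 ± 1.03 percentage points (SD, n = 3; exact permutation p = 0.00926, the smallest the design can give, and 0.037 after Benjamini-Hochberg adjustment over the 12 measures of these rearrangements compared in this way). Of CD8 TILs templates, 71.8% for members and 78.8% for the rest lay in rearrangements also found in CX3CR1hi of the same experiment, on average. These 2 libraries of an experiment are thus not fully separate observations, and the permutation test does not allow for that. The difference shrank as the largest clones were left out, in alternatives added after the data were seen. It was -1.54 percentage points (exact permutation p = 0.0648) without the single most abundant productive rearrangement of each library and -0.27 (exact permutation p = 0.87) without the 10 most abundant, and when rearrangements with 1 insertion were added it turned to 1.76 (exact permutation p = 0.796).

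**Figure D1:**
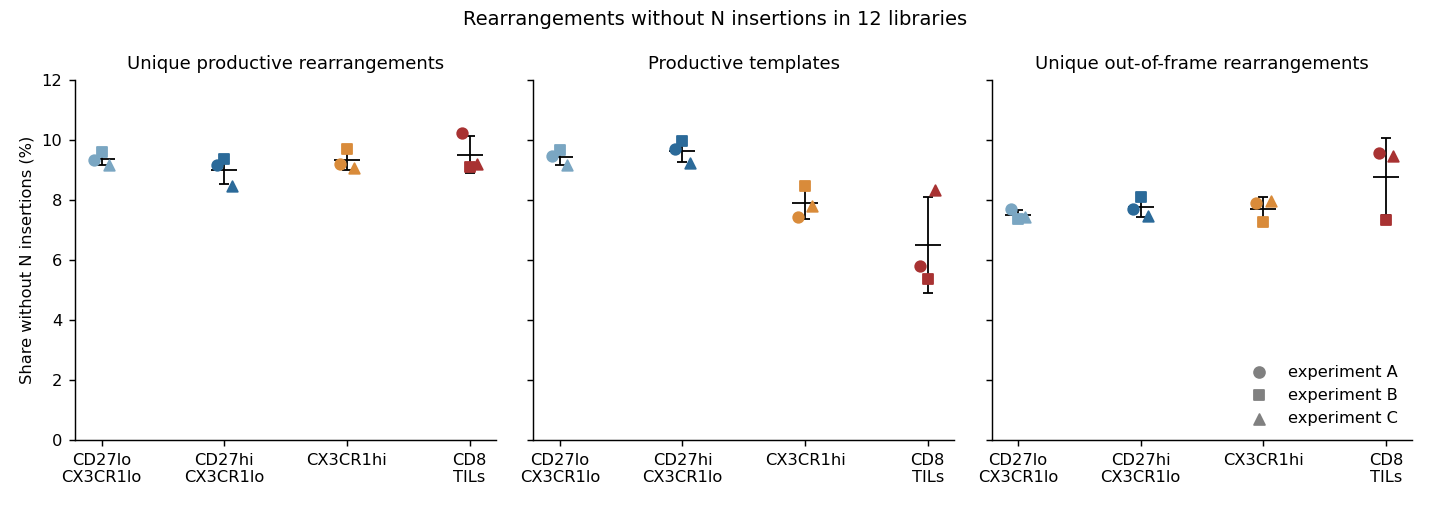
Share of rearrangements without N insertions (y axis, percent) in each of 12 libraries, as a share of unique productive rearrangements, of productive templates and of unique out-of-frame rearrangements; symbols are experiments, dashes are group means and bars the SD over 3 experiments. The unique productive share stays between 8.46% and 10.2% in all libraries, while the template share of CX3CR1hi and CD8 TILs lies below that of both CX3CR1lo groups.

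Out-of-frame rearrangements, which encode no receptor and escape selection on their sequence, offered an internal reference. They were without N insertions in 7.27% to 9.57% of cases, against 8.46% to 10.2% of productive ones. The productive share was the higher in 11 of 12 libraries, by 1.36 ± 0.52 percentage points on average (SD, n = 3 experiments; exact sign-flip test, p = 0.25, the smallest that 3 experiments allow). The exception was CD8 TILs C, at 9.20% productive and 9.45% out-of-frame. In-frame rearrangements with a stop codon were without N insertions in 183 of 3085 cases, 5.93%. Over the whole productive repertoire the number of inserted bases peaked at 3, with a mean library share of 16.8%, and 12.8% of rearrangements had exactly 1 insertion.

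The number of templates of a rearrangement was related to the absence of N insertions differently in the 4 groups, with the highest shares among CD27hi CX3CR1lo cells. Templates of 1 sequence can come from cells that made it separately, so their number need not be the size of 1 clone. Which of these applied was not tested. Among CD27hi CX3CR1lo rearrangements seen with 1 template, 8.79%, 9.06% and 7.97% lacked N insertions in experiments A, B and C. Among those with 3 to 9 templates, the shares were 20.3%, 21.7% and 18.8%, from 158 of 780, 170 of 784 and 290 of 1541 rearrangements. All 3 experiments thus showed a share about as far above the 1-template class, and those with 2 templates lay at 8.74% to 9.48%, close to the singletons. Few CD27hi CX3CR1lo rearrangements had 10 to 99 templates. Of these, 1 of 15, 2 of 11 and 3 of 14 lacked N insertions (6.67%, 18.2% and 21.4%), so experiment A did not keep the higher share. The step from 1 to 3 to 9 templates was 11.6 ± 0.904 percentage points in CD27hi CX3CR1lo (SD, n = 3). It was 1.22 ± 0.525 in CD27lo CX3CR1lo, 1.49 ± 1.80 in CX3CR1hi and -0.99 ± 1.04 in CD8 TILs. The 4 groups differed in this step (exact permutation p = 0.0122, Benjamini-Hochberg adjusted p = 0.0365 over the 12 measures), which was examined after the values had been seen. Without experiment B or without experiment C the exact permutation p for a difference among the 4 groups was 0.125. CD27hi CX3CR1lo then lay above the mean of the other groups by 10.6 and 11.9 percentage points. With every deeper library drawn down to the 18180 templates of the smallest splenic library, CD27hi CX3CR1lo reached 25.2%, 30.8% and 28.5% in the class of 3 to 9 templates, and no other library of the 12 exceeded 10.8%.

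**Figure D2:**
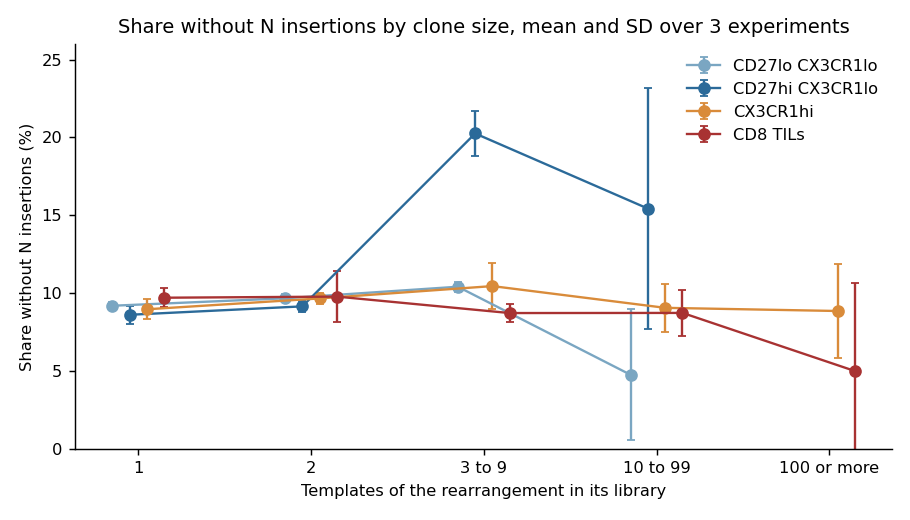
Share of productive rearrangements without N insertions (y axis, percent) by the number of templates of the rearrangement in its library (x axis); points are means and bars the SD over 3 experiments, and only classes filled in all 3 experiments are drawn. CD27hi CX3CR1lo rises from 8.61% at 1 template to 20.3% at 3 to 9 templates, while the other groups stay between 8.72% and 10.4% there; the lowest bar is cut at 0.

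In CX3CR1hi and CD8 TILs, where clones were large, no difference was shown between expanded clones, defined as at least 0.1% of productive templates, and the whole library in the share without N insertions. The threshold follows depth: the smallest expanded clone of CD8 TILs A had 6 templates, and deeper libraries require more. In CX3CR1hi, 11 of 143, 8 of 126 and 18 of 144 expanded clones lacked N insertions in experiments A, B and C, that is 7.69%, 6.35% and 12.5%. In CD8 TILs the numbers were 11 of 115, 9.57%, then 11 of 128, 8.59%, and 9 of 131, 6.87%. Against the share in all unique rearrangements of the same library the difference was -0.48 ± 3.51 percentage points in CX3CR1hi (SD, n = 3; exact sign-flip p = 1), lower in 2 of 3 experiments, and without experiment A or B it changed sign (0.03 and 0.97). In CD8 TILs it was -1.17 ± 1.01 (SD, n = 3; exact sign-flip p = 0.25), lower in 3 of 3. It was -0.58 without experiment C, and -0.57 and -2.49 with thresholds of 0.05% and 0.5%. The CD27lo CX3CR1lo libraries held 7, 2 and 8 expanded clones and the CD27hi CX3CR1lo libraries 0, 1 and 0, and none of these lacked N insertions.

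The most abundant clone of each CX3CR1hi and CD8 TILs library carried N insertions, as did most rearrangements of any size. The largest clone without them took 1.21%, 1.35% and 0.487% of CX3CR1hi templates in experiments A, B and C, where the largest with insertions took 4.22%, 17.5% and 6.33%. In CD8 TILs the corresponding values were 0.696%, 0.848% and 1.52% against 13.6%, 7.43% and 9.98%. Ranked by templates, the first rearrangement without N insertions stood at place 15, 5 and 32 in CX3CR1hi and at place 15, 23 and 12 in CD8 TILs. Members made up 9.07% to 10.2% of the unique rearrangements of these libraries, so that few are to be found in the first 10 places: CX3CR1hi B had 3 there and the other 5 libraries 0. Expanded members held 45.5% to 59.8% of the member templates of CX3CR1hi and 45.6% to 70.4% of those of CD8 TILs. For rearrangements with insertions the values were higher in each of the 6 libraries, 60.5% to 66.0% and 68.9% to 78.7%.

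The expanded members of CX3CR1hi and CD8 TILs were 55 distinct rearrangements, and 15 of these (27.3%) were detected in at least 2 experiments, against 49 of 588 expanded rearrangements with insertions (8.33%). TCRBJ02-07 was used by 20 of the 55 and TCRBV19-01 by 7, where their mean shares of all unique members were 20.4% and 7.08%. In experiment A the TCRBV13-01 with TCRBJ02-02 junction of 10 codons led both groups, with 674 templates (1.21%) in CX3CR1hi and 41 (0.696%) in CD8 TILs, and it was also seen with 9 and 26 templates in CX3CR1hi B and CD8 TILs B. A TCRBV13-01 with TCRBJ01-01 junction of the same length followed in CX3CR1hi A with 484 templates (0.868%), and 9 templates made it the leading member of CD27lo CX3CR1lo A. Both use a TCRBV13-01 end trimmed by 3 bases.

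In experiment B the TCRBV13-02 with TCRBJ01-04 junction, whose D part is only CAG, held 686 templates (1.35%) in CX3CR1hi and 90 (0.727%) in CD8 TILs, and its 14 templates were the most of any member in CD27hi CX3CR1lo B. The TCRBV01-01 with TCRBJ01-02 junction took 642 templates (1.26%) in CX3CR1hi B and was not found among the 12388 templates of CD8 TILs B, which allows a share of up to 0.0242%. The TCRBV04-01 with TCRBJ01-03 junction had 503 templates in CX3CR1hi B, 34 in CD8 TILs B and 18 in CD27lo CX3CR1lo B, where it led the members. All 3 were found mainly in experiment B: outside it only the first appeared, with 2 templates in CD27lo CX3CR1lo C.

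In experiment C the leading members of CX3CR1hi were a TCRBV13-03 with TCRBJ01-01 junction, at 554 templates (0.487%), and the TCRBV12-01 with TCRBJ02-05 junction, at 549 (0.483%). The latter keeps 7 bases of D and an untrimmed J, and it reached 92 templates (0.439%) in CD8 TILs C and 19 in CD27lo CX3CR1lo C. The largest member of CD8 TILs C was the TCRBV01-01 with TCRBJ02-07 junction, at 318 templates (1.52%), which had 4 templates in CX3CR1hi C and 2 in CD27hi CX3CR1lo C. Its share was thus higher in the tumor than in any splenic library. In CD8 TILs A, a TCRBV19-01 with TCRBJ02-04 junction came second, at 25 templates (0.424%), with 92 (0.165%) in CX3CR1hi A.

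Of the 31 expanded members of CD8 TILs, 9 of 11, 9 of 11 and 9 of 9 were found in CX3CR1hi of the same experiment. Expanded clones with insertions were found there in 63 of 104, 103 of 117 and 114 of 122 cases. Over all unique CD8 TILs rearrangements, 24.5%, 38.3% and 49.0% of members and 19.8%, 38.0% and 46.2% of the rest were present in CX3CR1hi. The difference was 2.57 ± 2.20 percentage points, higher in 3 of 3 experiments (SD; exact sign-flip p = 0.25 with n = 3). Weighted by templates, the overlapping part was 51.8%, 74.4% and 89.2% for members and 64.7%, 86.2% and 85.5% for the rest, higher in 1 of 3 experiments.

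The exact nucleotide sequence was shared between experiments more often by rearrangements without N insertions than by the rest. In CD27hi CX3CR1lo 18.6%, 19.3% and 17.3% of them were also present in that group in another experiment, against 2.90%, 2.84% and 2.51% of rearrangements with insertions. CD27lo CX3CR1lo gave 8.59%, 6.55% and 7.68% against 1.04%, 0.942% and 0.881%. In CX3CR1hi the shares were 7.31%, 8.84% and 4.14% against 1.46%, 1.53% and 0.989%. In CD8 TILs, where only 6, 6 and 9 members were shared, they were 4.32%, 4.26% and 4.50% against 1.64%, 0.994% and 1.37%. The share of members was higher in 12 of 12 libraries, 2.63 to 8.71 times that of the rest, and the mean difference was 7.69 ± 0.63 percentage points (SD, n = 3 experiments; exact sign-flip p = 0.25, the smallest possible).

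The spread between groups depended on depth. With all libraries drawn down to 5893 templates, the shared part of members was 4.58 ± 0.08% in CD27hi CX3CR1lo, 3.94 ± 0.59% in CD27lo CX3CR1lo, 4.22 ± 1.20% in CX3CR1hi and 4.44 ± 1.43% in CD8 TILs (SD, n = 3), and the excess over the rest was not shown to differ among the 4 groups (exact permutation p = 0.415, against p = 0.0104 at full depth). The excess itself was kept in 12 of 12 libraries at this depth, at 3.27 percentage points. It was also kept in 12 of 12 libraries, at 6.31 percentage points, when only rearrangements with at most 4 templates in every library were used.

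**Figure D3:**
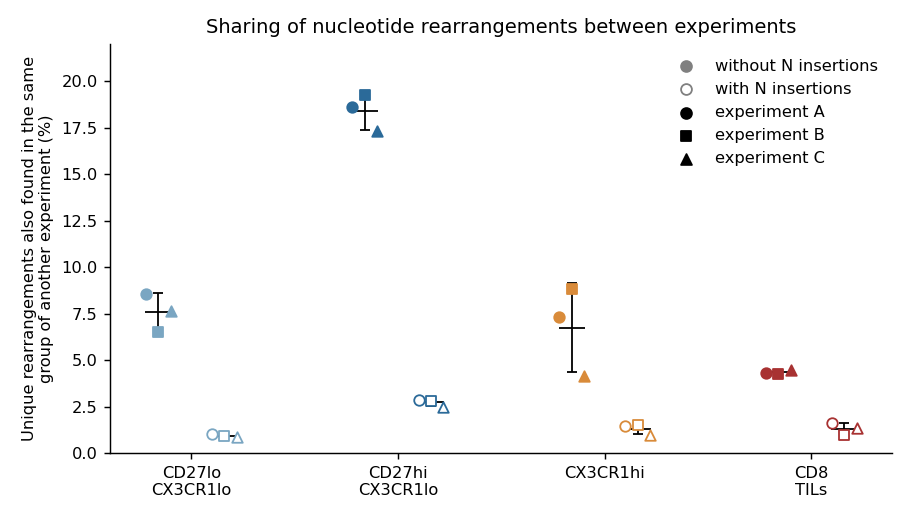
Percent of unique productive rearrangements of a library also found in the same group of another experiment (y axis), for rearrangements without (filled) and with (open) N insertions; symbols are experiments, dashes means and bars the SD over 3 experiments. Filled symbols lie above open ones in all 12 libraries, from 4.14% to 19.3% against 0.881% to 2.90%, at full and unequal depth.

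Sharing fell with each added base from 0 to 7 insertions. Over all libraries, 11.6% of distinct rearrangements without insertions occurred in at least 2 experiments. The value was 5.97% with 1 insertion, 2.94% with 2, 1.44% with 3 and 0.749% with 4. All 3 experiments held 276 members, 1.79%, and they formed 54.9% of the 503 rearrangements found in every experiment, although members were 7.95% of distinct rearrangements.

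The 276 members found in all 3 experiments had lost fewer V bases, 1.25 on average, than the 13615 found in 1 experiment, with 2.21, and they lacked an assigned D more often (10.1% against 3.80%). They used TCRBV13-02 in 20.3% and TCRBJ02-07 in 29.3% of cases, against 8.78% and 17.7% in those found in 1 experiment. Mean CDR3 length was about the same, 38.5 and 38.4 nucleotides. The most frequent pair among them was TCRBV13-02 with TCRBJ02-07, with 18 rearrangements, followed by TCRBV12-01 with TCRBJ02-01, with 13. These are descriptions over distinct sequences, which are not independent samples.

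A single nucleotide rearrangement was present in all 12 libraries, and it lacked N insertions. It is the TCRBV13-02 with TCRBJ02-07 junction of 10 codons, in which 2 G bases join a V end trimmed by 3 bases to a J trimmed by 4. It had 3, 7 and 3 templates in CD27lo CX3CR1lo and 8, 11 and 8 in CD27hi CX3CR1lo. It had 31, 191 and 88 in CX3CR1hi and 8, 105 and 228 in CD8 TILs. In shares of productive templates that was at most 0.0385% in either CX3CR1lo group, up to 0.375% in CX3CR1hi and 0.136%, 0.848% and 1.09% in CD8 TILs, so that it was highest in the tumor in each experiment. It passed the 0.1% threshold in all 3 CD8 TILs libraries and in 1 CX3CR1hi library. Its CDR3 amino acid sequence with the same V and J was spelled by 15 distinct rearrangements in the series, 5 of them with N insertions. Wide spread was not particular to members. Of the rearrangements with insertions, 3 were found in 8 libraries, 2 in 9, 1 in 10 and 1 in 11. No member was found in exactly 8, 9, 10 or 11 libraries.

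The next members by spread were found in 7 libraries. The TCRBV19-01 with TCRBJ02-01 junction, in which 5 G bases stand between an untrimmed V and a J trimmed by 1 base, had 116 templates in CX3CR1hi C and 96 in CD8 TILs C but 1 or 2 in its other 5 libraries. The TCRBV01-01 with TCRBJ01-01 junction, with no base lost from V or J, stayed between 1 and 9 templates throughout. Of the members found in 6 libraries, the TCRBV29-01 with TCRBJ02-07 junction, a direct V to J join in the annotation, had 138 templates in CX3CR1hi C and the TCRBV05-01 with TCRBJ01-02 junction 61, with at most 6 elsewhere for either. The TCRBV19-01 with TCRBJ02-07 junction, also in 6 libraries, was the leading member of CD27hi CX3CR1lo C with 14 templates. In CD27hi CX3CR1lo A a TCRBV13-02 with TCRBJ02-07 junction of 13 codons led with 11 templates, and its peptide was spelled by 12 rearrangements.

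CDR3 loops without N insertions were shorter by about the length of the missing bases. Mean length was 38.1 to 38.8 nucleotides in the 12 libraries, against 42.1 to 42.3 for rearrangements with insertions, a difference of -3.79 ± 0.10 nucleotides (SD, n = 3 experiments; exact sign-flip p = 0.25), with the same sign in 12 of 12 libraries. Once the insertions were subtracted, the germline-encoded length of the rest was 38.2 to 38.4 nucleotides, 0.04 ± 0.09 nucleotides from the members. A length of 30 nucleotides, that of the 12-library junction, was found in 4.64% of members and 0.784% of the rest, and lengths of 42 nucleotides or more were less frequent among members than among the rest in all libraries up to 51 nucleotides. Mean member length was 38.3 ± 0.3 in CD27lo CX3CR1lo, 38.4 ± 0.0333 in CD27hi CX3CR1lo, 38.4 ± 0.0814 in CX3CR1hi and 38.5 ± 0.2 nucleotides in CD8 TILs (SD, n = 3), and the clonal groups exceeded the CX3CR1lo groups by 0.12 ± 0.18 (exact permutation p = 0.25).

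**Figure D4:**
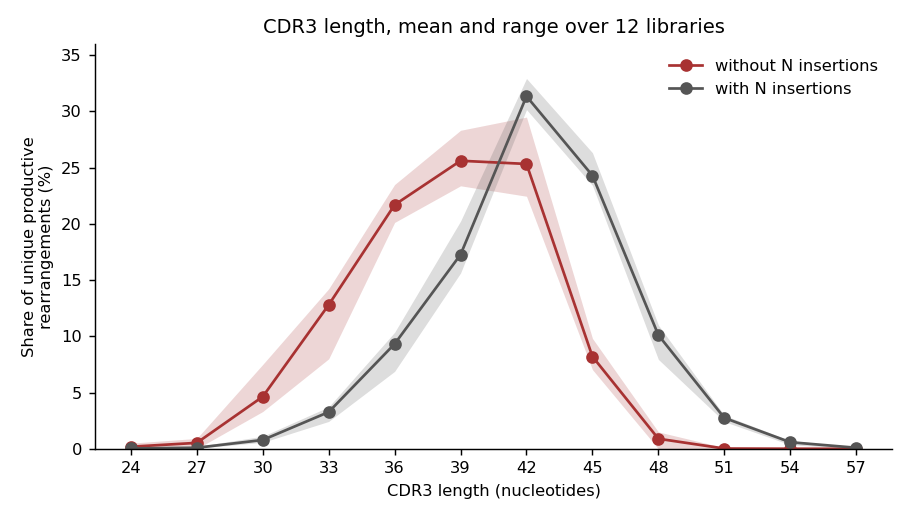
CDR3 length in nucleotides (x axis) as a share of unique productive rearrangements (y axis, percent), without and with N insertions; points are means and bands the range over 12 libraries. Rearrangements without N insertions are spread over 36 to 42 nucleotides, where each class holds 21.7% to 25.6%, while those with insertions peak at 42 nucleotides with 31.4%.

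The ends of the segments were trimmed differently as well. Members had lost 2.06 V bases on average and the rest 2.72, with fewer lost in members in 12 of 12 libraries. J loss was close, 2.75 against 2.85 bases. The D part was 6.26 bases long in members and 6.82 in the rest, and 18.5% of members with a D had 3 or fewer D bases against 12.0% of the rest. At that length a D match can arise from other bases, so the count of insertions, and with it membership, depends on the annotation. No D at all was assigned in 4.88% of members and 1.88% of the rest, on average over libraries, higher in members in 12 of 12.

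The share of members without a D also separated the groups. It was 5.28%, 5.42% and 6.27% in CD27lo CX3CR1lo, computed for experiments A, B and C, and 5.26%, 5.28% and 5.38% in CD27hi CX3CR1lo. It was 4.41%, 5.16% and 4.43% in CX3CR1hi and 3.60%, 3.55% and 4.50% in CD8 TILs. No CX3CR1hi or CD8 TILs library reached the lowest CX3CR1lo library, and the means differed by -1.21 ± 0.19 percentage points (SD, n = 3; exact permutation p = 0.00926, adjusted p = 0.037 over the 12 measures). Out-of-frame rearrangements without N insertions showed a shift in the same direction, from 7.75% to 5.29% without a D on average, by -2.46 ± 1.33 percentage points (SD, n = 3; exact permutation p = 0.0185), with overlapping libraries. In CD8 TILs these shares stand for few rearrangements, 3.55% being 5 of 141. Productive rearrangements with insertions did not show this shift. They lacked a D in 1.96% of cases in CX3CR1hi and CD8 TILs and in 1.79% in the CX3CR1lo groups, on average. The difference was 0.17 ± 0.27 percentage points (SD, n = 3; exact permutation p = 0.12). The share without a D was not compared at equal depth.

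Where D was resolved to 1 gene, TCRBD01-01 was assigned in 57.4% of members and 56.3% of the rest. TCRBD02-01 lies downstream of the TCRBJ01 cluster, so its joining to TCRBJ01 genes is not available to ordinary deletional recombination. In the annotation, 701 of 6067 members assigned to it (11.6%) carried a TCRBJ01 gene, against 6.50% of the rest. Whether these D calls rest on few matching bases was not tested. Another 18.4% of members were tied between both D genes.

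V gene use of members followed that of the rest with a few shifts. TCRBV13-02 was the most used, at 10.9% of members (9.35% to 13.0% over libraries) against 8.82% of the rest, and higher in members in 11 of 12 libraries. TCRBV13-01 followed with 7.41% against 6.20%, TCRBV19-01 with 7.08% against 8.31%, TCRBV13-03 with 7.02% against 6.37% and TCRBV16-01 with 6.76% against 6.46%. Among V genes with a mean share of at least 1% in members or in the rest, the highest ratios of member share to the rest belonged to TCRBV20-01 (1.32), TCRBV15-01 (1.25) and TCRBV13-02 (1.24), and the lowest to TCRBV04-01 (0.551), TCRBV03-01 (0.656) and TCRBV24-01 (0.749). TCRBV15-01 was higher in members in only 7 of 12 libraries and lower in 5. It took 7.91% and 7.80% of members in CD8 TILs A and B but 1% in CD8 TILs C. In CX3CR1hi its mean was 2.67% of members against 2.96% of the rest. TCRBV04-01, TCRBV03-01 and TCRBV12-01 were the 3 of 19 V genes used less by members in 12 of 12 libraries, and none of the 19 was used more in all 12.

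Between the groups, 1 of the 19 V genes tested passed, 5.26% of the genes. TCRBV12-01 was used by 6.85%, 7.11% and 7.89% of members in CD27lo CX3CR1lo and by 7.21%, 7.36% and 8.04% in CD27hi CX3CR1lo. CX3CR1hi gave 6.24%, 7.00% and 6.93%, and CD8 TILs 2.88%, 2.84% and 5.50%, below all other libraries (exact permutation p = 0.00174, the smallest possible, Benjamini-Hochberg adjusted p = 0.033). Rearrangements with insertions followed the same order, 8.13 ± 0.10%, 8.68 ± 0.25%, 7.79 ± 0.46% and 6.11 ± 1.24% (SD, n = 3), and the gap between members and the rest was not shown to differ among the groups (exact permutation p = 0.113). The call was lost with the share of templates in place of unique rearrangements (lowest adjusted p = 0.324 by the exact permutation test) and without the pairing by experiment (0.0625). It was also lost without experiment A (0.792), B (0.264) or C (0.158). That loss was fixed in advance, because the smallest permutation p with 2 experiments, 0.0417, is too large for 1 gene of 19 to pass alone. A gene that is apart in 1 group alone reaches a p near 0.0625 in this design, so such a shift can be missed.

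J use was dominated by TCRBJ02-07 (20.4% of members, 21.7% of the rest) and TCRBJ02-01 (15.1% and 12.9%). TCRBJ01-01 had 10.2% and 9.37%, TCRBJ02-05 9.82% and 10.6%, TCRBJ01-02 7.72% and 6.49%, TCRBJ02-04 6.89% and 7.08% and TCRBJ01-04 6.15% and 6.78%. Below these stood TCRBJ02-02 with 5.86% and 5.56%, TCRBJ01-03 with 5.17% and 4.88%, TCRBJ01-05 with 3.86% and 3.57%, TCRBJ01-06 with 3.53% and 2.87% and TCRBJ02-06 with 0.00574% and 0.0145%. TCRBJ02-03 was the 1 gene of 12 lower in members in all 12 libraries, 5.20% against 8.10%. None of the 12 J genes differed between the groups (0% called by the exact permutation test after Benjamini-Hochberg adjustment, lowest adjusted p = 0.167), and 2 had an unadjusted p under 0.05, TCRBJ02-05 and TCRBJ01-03.

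**Figure D5:**
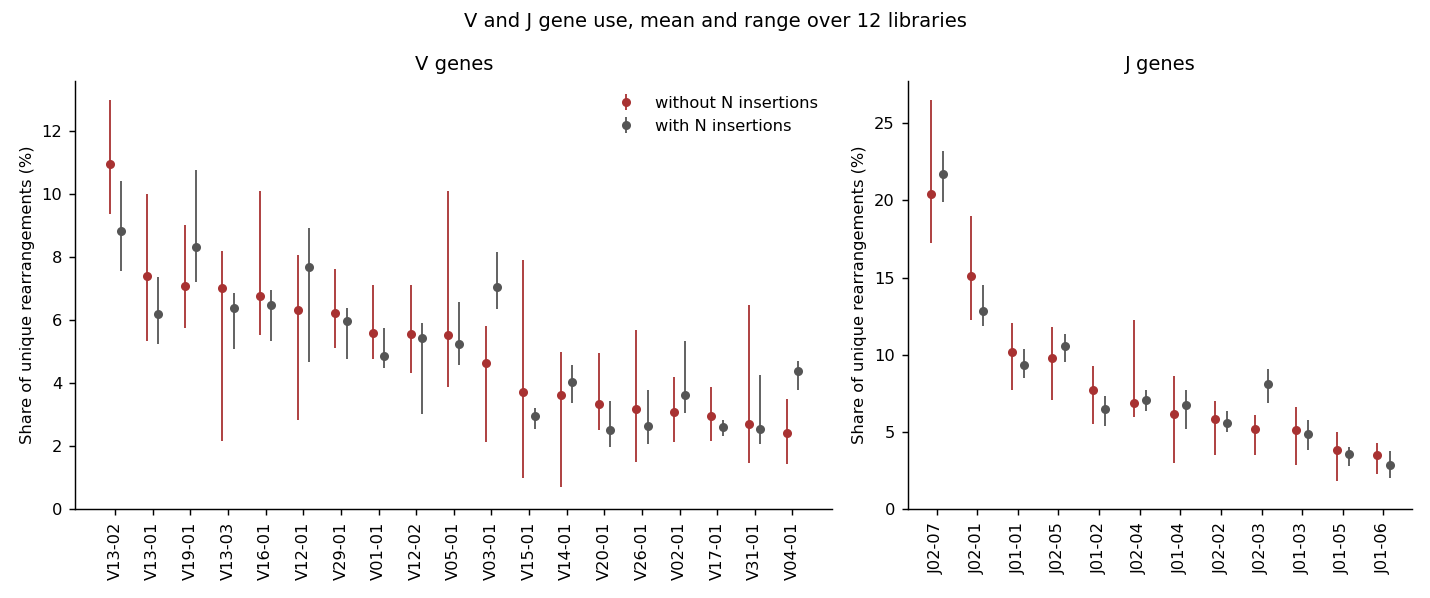
V gene use (left) and J gene use (right) as the share of unique productive rearrangements (y axis, percent) without and with N insertions, for genes with at least 1% of members; points are means and bars the range over 12 libraries. Most genes overlap, and TCRBV03-01, TCRBV04-01 and TCRBJ02-03 lie lower without N insertions, with ranges that do not meet those of the rest.

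Few CDR3 peptides of members were also spelled with N insertions in the same library. The share of members whose amino acid sequence with the same V and J also occurred with insertions was 11.0% to 14.4% in CD27hi CX3CR1lo and 2.84% to 6.00% in the other 9 libraries, in the presence of unequal depth. Counted by peptide with V and J, 20.3% of members were found in the same group of another experiment on average (7.73% to 38.5% over libraries), against 6.20% of the rest.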

How the data were processed

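Sequencing of TCRβ loci used the immunoSEQ kit on genomic DNA. The deposited files are 1 table per library in which, per the file headers, each row is an 87-base rearrangement with its template count, its frame status, its V, D and J genes and other annotated numbers (CDR3 length, bases deleted and inserted at each junction). Template counts were used as deposited by the authors, with no further normalization. The submitters' processing notes name mm10. Annotation rules of the assay's software are not given in the sources used here; the index columns placed the first insertion column between D and J. In-frame rows were taken as productive, and rows whose 2 insertion numbers summed to 0 were the members. The members and the lists compared were chosen with earlier results of these data known. Genes or rearrangements named are the 5 V genes and the J genes of largest member share, the 3 V genes of highest and of lowest ratio to the rest (at least 1% in either), genes that passed the test, the leading 2 members of each CX3CR1hi and CD8 TILs library, the leading member of the other libraries and the 5 members found in most libraries.

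Groups were compared by exact permutation within experiments (216 arrangements for 2 groups against 2, 13824 for 4 groups), in place of the repeated-measures test of the methods, and members against the rest by exact sign flips over 3 experiments. Libraries of an experiment share a code in their labels. Their deviations from the group means correlated on average at 0.37 for the unique share and at -0.02 for the template share, so this replicate block is taken from the labels and is not evident in every measure. V and J genes with a mean of at least 1% of members were tested, with Benjamini-Hochberg adjustment. Alternatives were other minimum templates, equal depth (100 draws), other member and clone definitions, and leaving out each experiment. The tests were checked on simulated data. Python 3.11.15, numpy 2.4.6, pandas 2.3.3, scipy 1.17.1 and matplotlib 3.10.9 were used. Intervals are 95% Wilson intervals, a count of 0 allows up to 3 templates, and both cover counting error only.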

Additional observations from a re-analysis of the deposited data

Results flagged for a closer look

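Template share minus unique share was above 0 in all CD27hi CX3CR1lo libraries and below 0 in all CX3CR1hi and CD8 TILs libraries. It was 0.55, 0.60 and 0.78 percentage points in CD27hi CX3CR1lo for experiments A, B and C, -1.76, -1.23 and -1.28 in CX3CR1hi and -4.42, -3.73 and -0.88 in CD8 TILs, so CX3CR1hi differed from CD27hi CX3CR1lo by -2.07 and CD8 TILs by -3.65 percentage points. Neither pair could pass a test alone (exact sign-flip p = 0.25 for each, the smallest that 3 experiments allow), while the mean of CX3CR1hi and CD8 TILs differed from that of both CX3CR1lo groups by -2.57 percentage points (exact permutation p = 0.00926).

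The excess of members over the rest in sharing between experiments differed among the 4 groups (exact permutation p = 0.0104), and it was largest in CD27hi CX3CR1lo. At equal depth that p was 0.415.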

How the results depend on the processing

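At 3 experiments the sign-flip tests cannot pass, and with 2 experiments neither can the contrast of groups, whose smallest exact permutation p is then 0.0556, nor any V or J gene after adjustment. The template share contrast (-2.33 percentage points) stayed past the threshold without the replicate block (exact permutation p = 0.00216), with at least 2 templates, with members that have a D gene only and at equal depth, with values from -3.36 to -1.94. It was -2.92 to -2.02 without each experiment in turn, and, in alternatives chosen after seeing the data, -1.54 without the most abundant rearrangement and -0.27 without the 10 most abundant; with at most 1 insertion it reversed to 1.76. Template minus unique share (-2.57) gave -3.12 to -2.14 without each experiment, -0.54 without the 10 most abundant and 1.06 with at most 1 insertion. The unique share contrast (0.24) reversed to -0.41 with at least 2 templates. Member CDR3 length, at 0.12 nucleotides, reached 0.61 (exact permutation p = 0.0185) with at least 2 templates. Expanded clones in CX3CR1hi (-0.48) reversed to 0.40 at a threshold of 0.05% and ranged from -2.43 to 0.97 without each experiment; the lower threshold holds more and smaller clones. In CD8 TILs (-1.17) the range was -1.50 to -0.58 without each experiment, with -0.57 at 0.05% and -2.49 at 0.5%. The step in CD27hi CX3CR1lo exceeded the mean of the other groups by 11.1 percentage points. The excess was 10.6 to 11.9 without each experiment and 19.1 at the depth of the smallest splenic library. The exact permutation p without each experiment, 0.0417 to 0.125, is for a difference among all 4 groups. It does not test CD27hi CX3CR1lo against the other groups. V gene calls fell from 1 to 0 by templates, without the replicate block and without each experiment, and stayed at 1 without the 1% minimum; J gene calls were 0 under every alternative. Sharing between experiments kept its sign under all 9 alternatives, from 3.27 to 21.3 percentage points. The cause of each change was not tested unless named.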
